A study of Mus musculus with 8 samples.

Results

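The MYC, MAX and MXD network is a family of basic helix-loop-helix leucine zipper transcription factors, and its 10 genes examined here were Myc, Mycn, Mycl, Max, Mxd1, Mxd3, Mxd4, Mxi1, Mnt and Mlx, of 21612 genes named by a probe of the array. Members were taken by name, as every probe whose transcript accession belongs to one of these genes, which gave 12 probes. The family was chosen by the Myc signal, which was higher after irisin on these same arrays, and the other members were listed by kinship and not by their values. The values of Myc are therefore given as a description without a test. AML12 cells, a mouse hepatocyte line established from a mouse carrying a human TGF-alpha transgene, were grown in serum-containing medium either without irisin (control, 4 arrays) or with 0.5 μg/ml irisin, a hormone cleaved from the muscle membrane protein FNDC5, for 24 h (irisin, 4 arrays). Both groups are the same cell line and not primary hepatocytes, and the comparison asks which transcripts differed after irisin. The labels number 4 replicates a group without saying whether each was a separate culture, so p-values measure the spread between these samples, which may be technical.

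MYC proteins act as dimers with MAX that bind the E-box CACGTG and raise transcription of genes for ribosome production, metabolism and the cell cycle. MXD proteins, MXI1 and MNT compete for MAX and occupy the same sites with SIN3 and histone deacetylases, and MLX is a second hub that pairs with MXD1, MXD4 and MNT as well as with the glucose-responsive factors MLXIP and MLXIPL. In liver, Myc is low in resting hepatocytes, rises early in regeneration and is often amplified or overexpressed in hepatocellular carcinoma.

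As the E-box is where the dimers of the network bind, the RefSeq promoter windows of the members (build GRCm38.p6, 250 bases before to 50 bases after the transcription start, both strands) were searched for CACGTG, which reads the same on either strand. Windows were found for 9 of the 10 genes, that of Myc being missing, and 4 of the 9 (44.4%) held the motif, against 8.09% of 27025 genes. The stretches of 30 bases around it are shown 5′ to 3′ on the gene's strand, with the E-box in capitals, because they hold the letters that MYC:MAX and MXD:MAX dimers recognise.
Max, chr12:76962234-76962263, minus strand: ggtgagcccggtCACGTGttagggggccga
Mxd4, chr5:34187912-34187941, minus strand: gggctgggccacCACGTGctgttgctaagc
Mnt, chr11:74830789-74830818, plus strand: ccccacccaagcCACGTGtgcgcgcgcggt
Mlx, chr11:101087238-101087267, plus strand: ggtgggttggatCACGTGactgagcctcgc
The motif began 3 bases before the start of Max, 40 before that of Mlx, 123 before that of Mnt and 219 before that of Mxd4. A match describes the letters in the window and not binding, which was not measured here.

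The arrays differed in overall brightness, and this touches every value below. The 75th percentile of the processed signal was 372 to 534 on the control arrays and 682 to 850 on the irisin arrays, while 59.5% to 64.0% of probes were well above background. Control arrays lay on 1 slide and irisin arrays on another. A difference between slides, or in how they were scanned, cannot be told apart from one due to irisin. Levels are therefore given as log2 of the processed signal minus the 75th percentile of its own array, a scale on which the median change of all 14311 tested genes was -0.06. Hepatocyte markers were present, with 13 of 13 tested and none called, from -0.47 for Krt18 (adjusted p = 0.00522) to 0.24 for Apob (adjusted p = 0.630), and their median level was 4.23 to 4.51 on control and 4.23 to 4.53 on irisin arrays. The dimmer probe of Apob went the other way, at -0.31 (adjusted p = 0.496). Of 12 markers of other liver cells only Csf1r, Pecam1, Kdr, Sox9 and Krt7 passed the filter on dim probes, whereas Ptprc, Adgre1, Cdh5, Lyve1, Des, Pdgfrb and Lrat did not. The median level of those 5 was -0.62 to -0.46 on control and -1.40 to -0.88 on irisin arrays, and their part in the results was not tested. All 5 changes were below 0, from -0.61 for Pecam1 to -0.03 for Sox9. Pecam1 was called down (adjusted p = 0.00214), at a weak level of -4.46 in control and -5.07 in irisin-treated cells. It was not called without control replicate 4 (-0.52) or irisin replicate 1 (-0.55). Nor was it called under cyclic loess, quantile normalization, normexp after local background subtraction, on the spike-in scale or unscaled. Kdr (-0.56, adjusted p = 0.00441) and the brighter probe of Csf1r (-0.49, adjusted p = 0.00139) were lower by less than 1.5-fold. The dimmer probe of Csf1r was lower by more than 1.5-fold (-0.74, adjusted p = 0.000179), as a called probe, beside 11.7% of all tested probes called down. Over all tested genes 0.531% were called up and 10.2% down.

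Myc, the driver of growth and ribosome synthesis in the family, had the largest difference between the groups among the tested members on this scale. Its processed signal was 2035, 2527, 2919 and 3129 on control replicates 1 to 4, and 6815, 5861, 7172 and 7351 on irisin replicates 1 to 4. After scaling, its level was 2.45, 2.38, 2.45 and 2.65 in control cells and 3.10, 3.10, 3.16 and 3.11 in irisin-treated cells. Every irisin array lay above every control array, as in 4.16% of all tested genes, with the control arrays more scattered (2.48 ± 0.12, SD, n = 4) than the irisin arrays (3.12 ± 0.03, SD, n = 4). The log2 change was 0.63 (SE 0.08), or 1.55-fold, which lay at percentile 99.2 of the changes of all tested probes. Without scaling the signal was 2.59-fold higher, a value that includes the general brightness of the irisin arrays. The change was 0.60 to 0.69 when each array was left out in turn. Each array measured RNA of many cells together, so more Myc RNA per cell and more cells that express Myc cannot be told apart.

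**Figure D1:**
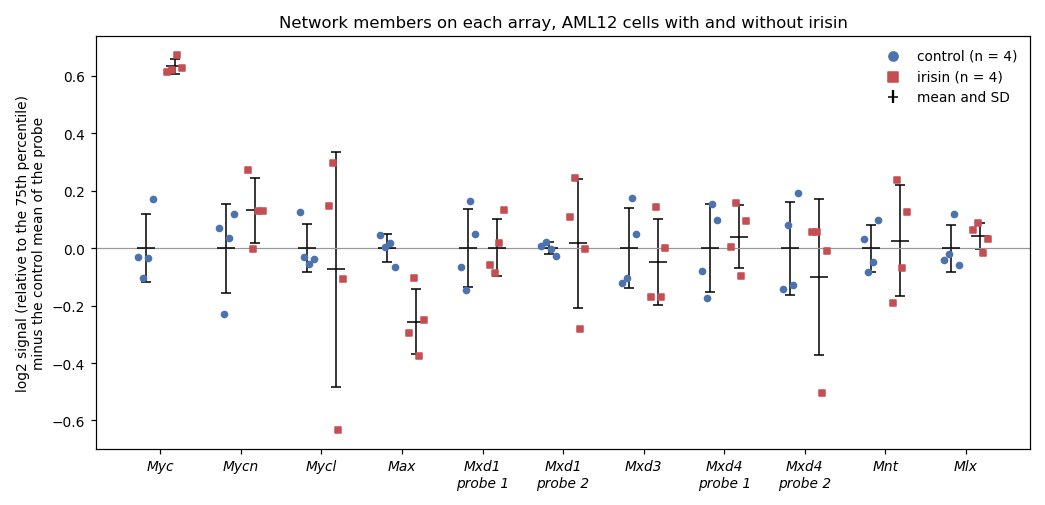
Level of each tested probe of the network on each array, as scaled log2 signal minus the control mean of that probe, with points for arrays and bars for the mean and SD of 4 arrays a group. Myc sits apart at a mean of 0.63, Max lies below its control arrays at a mean of -0.26, and the points of the other members overlap between the groups.

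Of the 8 other members that could be tested, none passed both thresholds in either direction, namely a 1.5-fold change or more together with a limma adjusted p under 0.05 over all 24092 tested probes. Over all tested genes 0.531% were called up and 10.2% called down, and nothing is read from the count of members beside these shares, since the same contrast singled out the family. By probe, 0 of the 10 probes of these genes were called, against 0.714% up and 11.7% down of all tested probes. At an unadjusted p under 0.05 there was 1 of the 8, Max, which was lower (23.6% of all genes were lower and 5.94% higher at that level). Their changes ran from -0.26 to 0.13 with a median of 0.01, 5 above 0 and 3 below. Mxi1, an MXD protein that competes with MYC for MAX, was not well above background on any array of either group, with processed signals between 1.13 and 1.53. It was represented by 1 probe and was not tested, and without the filter on dim probes it was called down, as were 29% of genes.

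The paralogues Mycn and Mycl code for MYC proteins best known from embryonic tissues. Mycn signal was 65.7, 69.7, 92.1 and 90.8 on the control arrays and 162, 114, 148 and 156 on the irisin arrays. Relative to the 75th percentile its level was -2.57 ± 0.16 (SD, n = 4) in control and -2.44 ± 0.11 in irisin-treated cells, with overlap between the groups, and the change of 0.13 did not pass the test (95% interval -0.09 to 0.36, adjusted p = 0.408). For Mycl the signal was 4.68 to 5.94 on control and 5.99 to 10.2 on irisin arrays, and the probe was well above background on only 2 of the 4 control arrays but on all 4 irisin arrays. Its scaled levels overlapped, from -6.49 to -6.31 in control and from -7.07 to -6.14 in irisin-treated cells, for a change of -0.07 (95% interval -0.46 to 0.31, adjusted p = 0.817). The direction for Mycl turned with the normalization, to 0.49 under quantile normalization, 0.45 under cyclic loess, 0.50 under spike-in scaling and 0.66 without scaling. With normexp background correction of the raw signal it was -0.61 and Mycl was called down, as were 12.8% of genes.

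Max, the obligate partner of all MYC and most MXD proteins, had the lowest change of the tested members. Its level was 2.01, 1.96, 1.98 and 1.89 on control replicates 1 to 4 and 1.66, 1.86, 1.58 and 1.71 on irisin replicates 1 to 4. All 4 irisin arrays were below all 4 control arrays, as in 19.7% of all tested genes. The change was -0.26 (SE 0.08, 95% interval -0.44 to -0.07), which was below the 1.5-fold threshold, with an adjusted p of 0.0476 (20.6% of genes were under 0.05 in either direction) and an exact two-sided permutation p of 0.0286, the smallest that the 70 assignments of 8 arrays allow. That adjusted p rested on the full set of arrays, being 0.0121 without irisin replicate 2 and 0.0688 to 0.131 without any other single array. It was 0.117 with the replicate number as a block. The sign of the change turned, to 0.32 when spike-in probes set the scale and to 0.48 without scaling. The medians over all genes were 0.51 and 0.67, so Max stayed below the median in both.

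A ratio of signals within 1 array does not depend on scaling between arrays. The log2 ratio of Myc to Max was 0.45, 0.42, 0.47 and 0.76 on control replicates 1 to 4 and 1.44, 1.25, 1.57 and 1.40 on irisin replicates 1 to 4. The groups did not overlap, and the ratio was higher by 0.89 on the log2 scale, or 1.85-fold, after irisin. As the ratio contains Myc it was not tested, and its absolute value carries the brightness of each probe, so only the difference between groups is read. That difference was 0.84 to 0.97 with each array left out. Against Max, the differences of the 7 other tested members ran from 0.18 for Mycl to 0.39 for Mycn. They are positive by arithmetic, since Max had the lowest change and all share its values, and they restate the change of Max rather than add to it. Mxd4 (0.30) and Mlx (0.30) each had an exact permutation p of 0.0286, which Max also had by itself. These p-values are therefore not read as results about Mxd4 or Mlx. For Mycn, Mnt (0.28) and Mxd3 (0.21) the exact permutation p was 0.0571, for Mxd1 (0.26) it was 0.114 and for Mycl 0.314. With 7 ratios in the family and a smallest possible p of 0.0286, no ratio could pass a Bonferroni correction for their number. These p-values were not corrected.

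**Figure D2:**
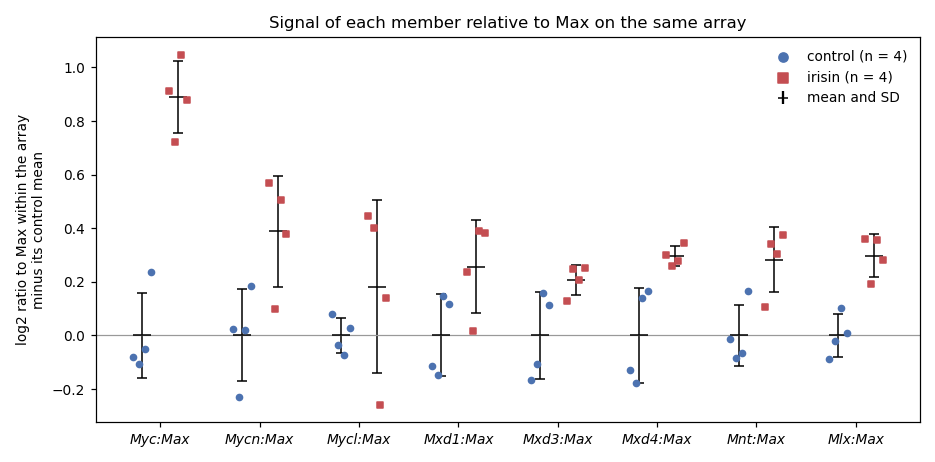
Log2 ratio of each member's signal to that of Max on the same array minus the control mean of the ratio, with points for arrays and bars for the mean and SD of 4 arrays a group. The ratio of Myc stands at a mean of 0.89 in irisin-treated cells, and the other members lie between 0.18 and 0.39.

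No probe of the MXD and MNT repressors passed the test. Mxd1, which is induced when cells differentiate, had a level of 1.16, 1.08, 1.40 and 1.28 in control and 1.17, 1.14, 1.25 and 1.37 in irisin-treated cells, a change of 0.0011 (95% interval -0.21 to 0.21, adjusted p = 0.996). The groups overlapped fully, and the dimmer probe of Mxd1 gave 0.02 (adjusted p = 0.941). Mxd3, the MXD member linked to proliferating cells, ranged from -2.45 to -2.15 in control and from -2.50 to -2.18 in irisin-treated cells, a change of -0.05 (95% interval -0.28 to 0.18, adjusted p = 0.799). Mxd4 was between 0.74 and 1.07 on control and between 0.82 and 1.07 on irisin arrays (change 0.04, 95% interval -0.18 to 0.26, adjusted p = 0.832). Its dimmer probe gave -0.10 (95% interval -0.41 to 0.21, adjusted p = 0.675), with irisin replicate 3 at -3.01 apart from the others. The difference between the probes of Mxd4 was 3.42 ± 0.23 (SD, n = 4) in control and 3.56 ± 0.19 in irisin-treated cells, and the change in that difference did not pass an exact permutation test (p = 0.314). Mnt, a widely expressed antagonist of MYC, had levels of 2.41, 2.30, 2.33 and 2.48 in control and 2.19, 2.62, 2.31 and 2.51 in irisin-treated cells. The lowest and the highest of these 8 values were both from irisin arrays, and the change was 0.03 (95% interval -0.21 to 0.26, adjusted p = 0.897).

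Mlx, the partner of the glucose-responsive factors, had a level of 0.33, 0.36, 0.49 and 0.32 in control and 0.44, 0.46, 0.36 and 0.41 in irisin-treated cells, a change of 0.04 (95% interval -0.13 to 0.21, adjusted p = 0.765). Of the 3 genes that extend the network, none was called, yet all had positive changes with a median of 0.46. Mlxip, also called MondoA, was higher by 0.46 (SE 0.11, adjusted p = 0.0111), under the 1.5-fold threshold. Mga, a large scaffold that pairs with MAX, had the highest value of 0.55 but also a wide error (SE 0.24, adjusted p = 0.133). It was called up when irisin replicate 2 was left out (0.78). Mlxipl, also called ChREBP, gave 0.19 (adjusted p = 0.211) and -0.15 with its dimmer probe (adjusted p = 0.443). All 3 were called up on the spike-in scale (Mga 1.13, Mlxip 1.04, Mlxipl 0.76), as were 33.3% of all genes. Without scaling all 3 were called up too (1.29, 1.20 and 0.92), as were 66.8% of all genes. Of 7 genes that MLX dimers control, 6 were tested and 1 was called down, beside 10.2% of all genes. This was G6pc, the catalytic subunit of glucose-6-phosphatase (-0.73, SE 0.17, adjusted p = 0.00953). Its signal was weak, at a level of -5.51 in control and -6.23 in irisin-treated cells. G6pc was not called with cyclic loess, quantile normalization, the methods' per-probe test or normexp after local background subtraction. Nor was it called when spike-in probes (-0.15) or nothing (0.01) set the scale. Txnip, a well-known target of MLXIP, had the highest change of 0.35 (adjusted p = 0.0104) while its dimmer probe gave -0.36 (adjusted p = 0.0387), so the direction for Txnip differed between its probes. Fgf21 was too dim to test.

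**Figure D3:**
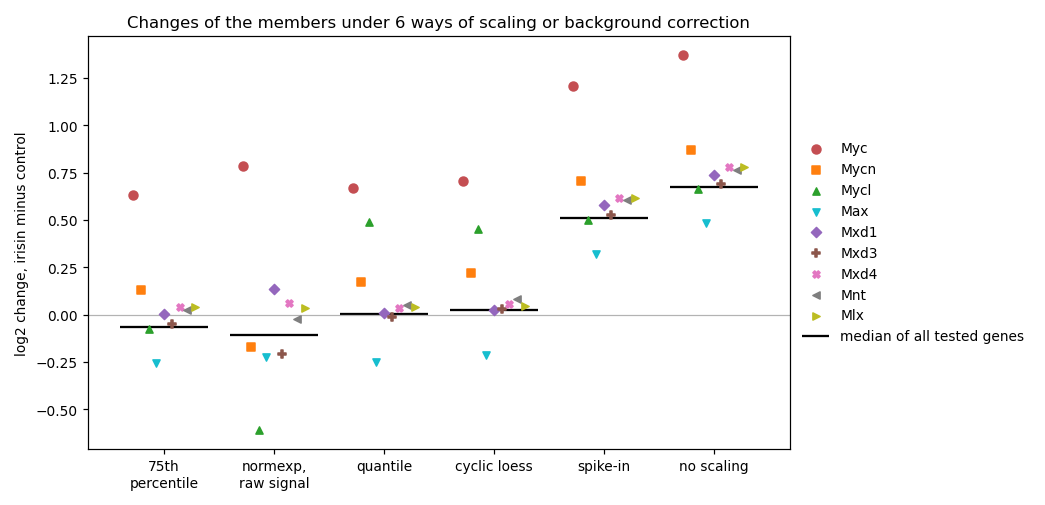
Log2 change, irisin minus control, of each tested member's brightest probe under 6 of the scalings or background corrections tried, with a black line at the median of all tested genes. Myc keeps the highest change of the members in each of the 6, from 0.63 with the 75th percentile to 1.37 with no scaling, and Max lies below the line in each while its sign turns where spike-in probes set the scale and without scaling.

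The genes around the network were described as lists, with counts and medians only, to be read beside the 0.531% of all genes called up and the 10.2% called down. Among 13 genes of MYC protein turnover none was called and the median change was -0.08. They ran from -0.41 for Cip2a, which protects MYC from dephosphorylation (adjusted p = 0.296), to 0.29 for Fbxw7, the ubiquitin ligase receptor of phosphorylated MYC (adjusted p = 0.160). Among 13 coactivators none was called and the median was -0.01, from -0.40 for the chromatin remodeller Ep400 (adjusted p = 0.00784, under 1.5-fold) to 0.20 for Hcfc1 (adjusted p = 0.279). The dimmer probe of Hcfc1 went the other way, at -0.30 (adjusted p = 0.126). Of 9 genes listed as corepressors 8 were tested, with a median of 0.07, and 1 was called up. This was Hdac2, a class I histone deacetylase of the SIN3 complex, at 0.94 (SE 0.16, adjusted p = 0.00153). Its signal was dim and came from 1 tested probe, at a level of -3.90 in control and -2.96 in irisin-treated cells. Hdac2 was called up with each array left out, at 0.80 to 1.07, but with neither normexp correction. Its change was 0.18 with normexp on the raw signal and 0.84 (adjusted p = 0.170) with normexp after local background subtraction, a setting in which no gene was called. Sin3b was lowest at -0.13 (adjusted p = 0.550). Zbtb17, in the list though not itself a corepressor of MXD or MNT, was too dim to test. Of 5 other genes linked to MYC none was called, from -0.56 for Tfap4, itself a MYC target (adjusted p = 0.00686, just under 1.5-fold, and 0.18 without scaling), to 0.27 for Mycbp2 (adjusted p = 0.273), and Tfap4 passed both thresholds without control replicate 3 (-0.64), irisin replicate 1 (-0.62) or irisin replicate 2 (-0.63).

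Of 40 genes that MYC is known to induce, 39 were tested, with none called up and 1 called down. Over all tested genes the shares were 0.531% up and 10.2% down. The median change was -0.07 against -0.06 for all genes. Tert, the catalytic subunit of telomerase, was the gene called down (-1.01, SE 0.12, adjusted p = 0.000219). Its signal was weak, at a level of -4.67 in control and -5.68 in irisin-treated cells. Hk2, a hexokinase of glycolysis, was the highest at 0.30 (adjusted p = 0.0750). At an unadjusted p under 0.05 there were 12, of which 1 was higher and 11 lower, beside 5.94% higher and 23.6% lower of all genes. Genes that MYC is known to repress had a nearly equal median of -0.07 over 18 tested, with none called up and 2 called down. These were Gas1, a growth-arrest gene and Hedgehog co-receptor (-0.83, SE 0.10, adjusted p = 0.000231), and Fth1, the ferritin heavy chain (-0.61, SE 0.08, adjusted p = 0.000387). Gas1 was dim, at a level of -3.33 in control and -4.16 in irisin-treated cells, against 7.12 and 6.50 for Fth1. Fth1 lost its call without control replicate 1, at -0.58, and also under quantile normalization (-0.24), cyclic loess (-0.37) and normexp on the raw signal (-0.44), where Gas1 and Tert kept theirs. Tert was -0.65, -0.62 and -0.71 in these settings. None of Tert, Gas1 and Fth1 was called down without scaling, at -0.27, -0.09 and 0.12, or on the spike-in scale, at -0.44, -0.26 and -0.04, nor after normexp with local background subtraction, at 0.34, 0.13 and -0.69. Btg2, an antiproliferative gene, was the highest at 0.25 (adjusted p = 0.0821). Of the 18 repressed genes 7 had an unadjusted p under 0.05, with 2 higher and 5 lower, beside the same shares of all genes. CACGTG was in the promoter window of 8 of 32 induced genes with a window (25%), 3 of 12 repressed genes, 3 of 6 genes of the MLX dimers, 2 of 12 coactivators, 1 of 11 turnover genes, 1 of 3 genes of the extended network, 0 of 7 genes listed as corepressors and 0 of 1 other gene linked to MYC, against 8.09% of all genes. Called up were 14 induced and 7 repressed genes when spike-in probes set the scale, as were 33.3% of all genes, and 24 and 13 without scaling, as were 66.8% of all genes.

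**Figure D4:**
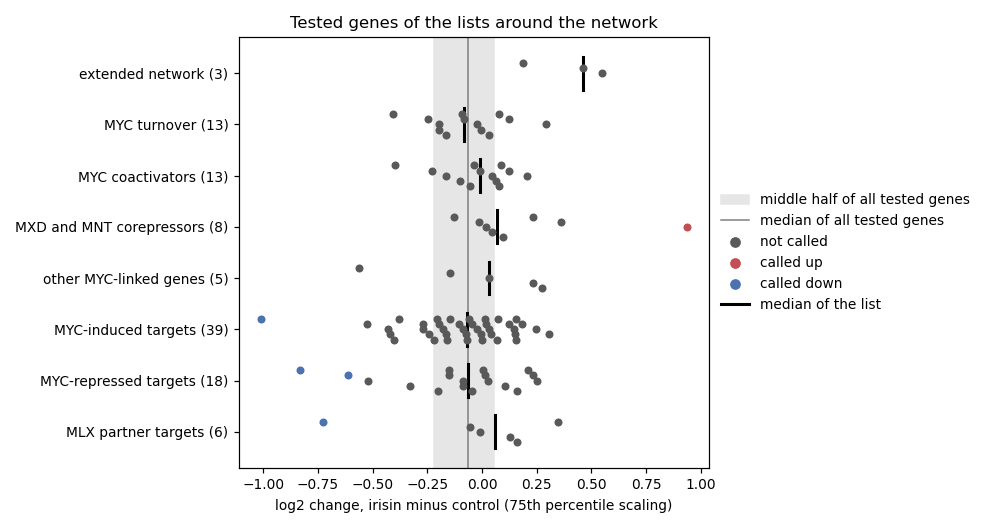
Log2 change, irisin minus control, of the tested genes of 8 lists around the network, 1 point a gene, with the list median as a black bar and the median of all tested genes as a grey line and the range between their quartiles, -0.22 to 0.06, as a grey band. Hdac2 at 0.94 is called up and Tert, Gas1, Fth1 and G6pc are called down.

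The 5 genes whose profile was closest to that of Myc were found by the root mean square difference over the 8 arrays, each profile being centred on its mean, among 13726 genes measured above background on all arrays. They were Abi2, an adaptor of the WAVE actin complex (difference 0.0677, change 0.56), Hlcs, the ligase that attaches biotin to carboxylases (0.0682, change 0.68), and Pfkfb2, which makes an activator of glycolysis (0.0695, change 0.55). Insr, the insulin receptor (0.0942, change 0.64), and Trmt1l, related to a tRNA methyltransferase (0.100, change 0.59), followed. The likeness includes the difference between the groups. Every probe of a gene was compared, so the nearest was not always its brightest. For Abi2 it was the dimmer probe, and the brighter probe changed by 0.20. For Insr it was the second brightest, with the brightest at 0.76 and the dimmest at 0.01. The dimmer probe of Hlcs changed by -0.11. Thus 1 of 2 probes of Hlcs and 2 of 3 probes of Insr had a change near that of Myc. The nearest probes of Abi2 and Hlcs were weak, at levels of -4.47 and -4.16 in control cells.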

How the data were processed

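The members and gene lists were chosen with earlier results of these data known. Total RNA of 8 AML12 samples had been labelled with Cy3 and hybridised to 1-colour Agilent arrays. The authors deposited scanner output of Agilent Feature Extraction 12.0.3.1, per the file headers, holding spot intensity with background subtracted, and a value table of the same intensity. Probes were named through RefSeq accessions, with 28663 of 39429 matched (72.7%). Processed signals were scaled to the 75th percentile of each array and taken as log2. Outlier spots (at most 0.463%) and control spots were left out. Probes well above background on all 4 arrays of a group were tested with limma 3.58.1 in R 4.3.3 (lmFit, eBayes, no covariate), with Benjamini-Hochberg adjustment over 24092 probes and calls at 1.5-fold and adjusted p under 0.05. The brightest probe stood for its gene, except in the search for profiles near Myc, which compared every probe. Exact permutation tests were two-sided. Named genes were every member, each list's called, highest and lowest genes, and the 5 profiles nearest to Myc. In simulated data 85.0% of 200 probes given a log2 change of 1 were recovered, with 2 unchanged probes called. The number of arrays limits the precision. In all, 23 alternatives were run, with normexp on the raw signal added after the data had been seen.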

Additional observations from a re-analysis of the deposited data

Results flagged for a closer look

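Of 54 sets of 4 arrays examined for a single array far from the other 3, 5 stood out, where chance gives about 1 in 20. For Mycl, control replicate 1 was at -6.31 and the other control arrays at -6.49 to -6.47. The dimmer Mxd4 probe was at -3.01 on irisin replicate 3 and at -2.52 to -2.45 on the other irisin arrays. The log2 ratio of Myc to Max was 0.76 on control replicate 4 and 0.42 to 0.47 on the other control arrays, nearer to the irisin arrays yet still below them. The median level of the other genes linked to MYC was 0.42 on irisin replicate 2 and 1.03 to 1.14 on the other irisin arrays. For Pfkfb2, control replicate 4 was at -1.74 and the other control arrays at -2.13 to -2.09.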

How the results depend on the processing

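The count of other members called was 0 up and 0 down in the main setting and with each array left out. Scaled to the spike-in probes it was 4 up (Mycn, Mxd4, Mnt, Mlx), where 33.3% of all genes were called up. Unscaled it was 7 up (all but Max), where 66.8% of all genes were called up. It was 1 down with normexp on the raw signal (Mycl), where 12.8% of all genes were called down. With no filter on dim probes it was 1 down (Mxi1), where 29% were. The Myc change moved to 0.79 with normexp on the raw signal, 1.21 scaled to the spike-in probes and 1.37 unscaled, and relative to the median of all genes it was 0.51 to 0.89 in every setting. The median change of the members minus that of all genes, 0.08, moved to -0.0669 with planned normexp and 0.20 with no filter. Changes of members that had not passed the test turned sign. With planned normexp they were 0.50 for Mycl, -0.00049 for Mxd1, 0.24 for Mxd3, -0.0293 for Mxd4, -0.22 for Mnt and -0.0245 for Mlx. With normexp on the raw signal they were -0.17 for Mycn and -0.0242 for Mnt. Quantile normalization gave 0.49 for Mycl, while cyclic loess gave 0.45 for Mycl and 0.0282 for Mxd3. Scaled to the median of detected probes Mxd1 was -0.0117, and averaged over its probes Mxd4 was -0.0306. Mycl was 0.50, Max 0.32 and Mxd3 0.53 on the spike-in scale, and 0.66, 0.48 and 0.69 unscaled. With 1 array left out the ranges were -0.20 to 0.11 for Mycl, -0.0477 to 0.0558 for Mxd1, -0.11 to 0.0103 for Mxd3, -0.0184 to 0.0912 for Mxd4 and -0.0442 to 0.0988 for Mnt.

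MYC-induced genes called down numbered 1, with 0 under planned normexp, on the spike-in scale and unscaled, 2 with no filter and 1 to 2 with an array left out, 2 without control replicate 1 or irisin replicate 2. MYC-repressed genes called down numbered 2, with 0 under planned normexp, on the spike-in scale and unscaled, 1 under normexp on the raw signal, cyclic loess and quantile normalization, and 1 to 2 with an array left out, 1 without control replicate 1. Induced and repressed genes called up were 14 and 7 on the spike-in scale and 24 and 13 unscaled, beside 33.3% and 66.8% of all genes. Over all genes, 76 were called up and 1460 down, against 0 and 0 with planned normexp, 23 and 1830 with normexp on the raw signal, 286 and 546 for quantile normalization, 306 and 488 for cyclic loess, 4772 and 184 on the spike-in scale, 9562 and 81 unscaled, 84 and 6257 with no filter, 48 and 1347 with the methods' per-probe test, and 42 up and 1404 down without irisin replicate 3 or 149 and 1581 without irisin replicate 2. Planned normexp placed the background at -306 and -395 on irisin replicates 2 and 4, against -10.7 to -8.06 on the other arrays. Equal replicate numbers did not pair the arrays (correlations of deviations 0.11, -0.35, -0.13 and 0.17), and the replicate block changed no call of a member, with 76 genes up and 1468 down. The weak signal of Mycl, Mxi1, Tert, G6pc, Hdac2, Gas1 and Pecam1 limits what can be said of them.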
